A study of Mus musculus with 11 samples.

Results

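Multi-copy tiles with read pile-up are 500-bp stretches of the mouse genome at which every library carried far more reads per CpG than the rest of its genome. The members were all tiles of chromosomes 1 to 19 with 3 or more CpGs listed in every file. Their mean reads per CpG had to reach at least 5 times the median reads per listed CpG of the same library, in all 11 libraries. The 45S ribosomal RNA locus on chromosome 17 (39979900 to 39985800), 12 tiles of which passed the threshold, was left out. Of 122345 tiles, 151 were members. They lay at 114 loci when tiles whose starts were within 2 kb were merged. A satellite-like pile-up on chromosome 2 (3 CpGs, from 98506419 to 98506660) was kept as a row of its own, since no tile there holds 3 CpGs. Depth chose the members, so every depth below is a description. Methylation was not used in the choice. All positions are in mm9, 1-based.

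The libraries are reduced representation bisulfite sequencing (RRBS) of ER-Hoxa9-Lys-GFP cells, a C57BL/6 mouse culture. RRBS cuts DNA with a restriction enzyme, and bisulfite then turns unmethylated cytosines into bases read as T, so that each read of a CpG counts as methylated or unmethylated. As background, such cells carry a Hoxa9 fusion to the estrogen receptor, which holds them as myeloid progenitors while estradiol is present. All groups grew in RPMI with 10% fetal bovine serum and SCF-conditioned medium. The group in continuous estradiol has 1 library. In 4 groups of 2 libraries estradiol was withdrawn for 24, 40, 56 or 72 h and then given back for 96, 80, 64 or 48 h. In the last group of 2 it was withdrawn for 120 h and not given back. Whether a group's replicates were grown apart is not stated in the labels, and p-values measure only the spread between these libraries, which may be technical. The libraries hold no expression, so the labelled cell type was not checked against markers. Summed reads over listed CpGs ranged from 8234933 to 46899896 per library, and the median per listed CpG from 5 to 25.

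DNA present in many near-identical copies gives reads that cannot always be placed at the copy they came from. A reference genome that holds fewer copies than the cell collects the reads of all of them. The measured methylation at such a place is then a mean over copies. The best-known families are ribosomal RNA genes, of which cells keep a methylated, silent fraction beside an unmethylated, active one, and satellite repeats near centromeres, which are usually heavily methylated. Mouse 4.5S RNA genes also lie in a tandem array.

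Pile-up tiles on chromosomes 13, 1, 11 and 7 overlapped the starts of genes whose promoters are in the RefSeq table of GRCm38.p6. Sequences from chromosomes 13, 1 and 11 are shown to place deep CpGs and CpGs of ordinary depth beside a gene's start. The tile on chromosome 7, chr7:7230501-7231000 at Vmn2r29, is not shown. Its deep CpGs had a mean level of 74.1% and its CpGs of ordinary depth 62.9%. The genes were placed by the spacing of their CpGs, as explained further on, and not by coordinates. Each stretch lies before the start of the gene, 5′ to 3′ on the gene's strand. Capitals mark CpGs that were listed in all 11 libraries.

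Lyst: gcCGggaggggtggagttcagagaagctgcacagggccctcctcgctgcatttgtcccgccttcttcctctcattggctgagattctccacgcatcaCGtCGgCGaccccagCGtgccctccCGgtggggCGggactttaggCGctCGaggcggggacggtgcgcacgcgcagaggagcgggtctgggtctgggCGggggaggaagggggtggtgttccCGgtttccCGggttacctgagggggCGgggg
Hjurp: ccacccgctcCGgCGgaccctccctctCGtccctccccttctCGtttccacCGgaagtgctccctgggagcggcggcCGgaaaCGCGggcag
Pitpna: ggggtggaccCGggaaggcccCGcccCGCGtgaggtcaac

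Lyst encodes a regulator of lysosome traffic, and its stretch of 250 bases fell in and just beside the tile chr13:13682501-13683000. Of its 13 CpGs in capitals, the CpG 56 bases before the start had 351 to 2590 reads and a mean level of 40.99% (32.43 to 47.29% over libraries). The CpG 31 bases before it had 365 to 2695 reads and a mean level of 42.93%. The CpGs on either side of this pair, 104 and 23 bases before the start, had 4 to 30 and 6 to 63 reads and mean levels of 0.0 and 0.14%. Depth and methylation thus stepped together over short distances, in all 11 libraries. Hjurp encodes the chaperone that loads the centromeric histone CENP-A. Its stretch lay in the tile chr1:90174001-90174500, where the CpGs 15 and 9 bases before the start had 68 to 398 and 68 to 401 reads and mean levels of 0.09 and 0.0%. Here the deep CpGs were, like their neighbours, almost unmethylated. Pitpna encodes a phosphatidylinositol transfer protein. The 4 CpGs shown lay in the tile chr11:75401501-75402000, had 10 to 99 reads and had mean levels of 0.0 to 0.75%. The 5 deep CpGs of that tile were not in the stretch, and they had a mean level of 7.46%.

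The pile-up tiles together took 1.19 to 1.44% of a library's summed reads over CpGs. The 3 CpGs on chromosome 2 alone took 4.06 to 5.34%. A pile-up tile held a median of 6 CpGs, against 4 in the other 122194 tiles. Depth was very uneven among members. The tile chr11:108873001-108873500 had the highest lowest ratio, with 151 to 203 times the library median over the 11 libraries and 10 CpGs at a mean level of 42.8%. Next came chr5:147072501-147073000 with 83.7 to 110 times the median and a level of 44.8%. The tile chr6:3150501-3151000 had 81.1 to 100.2 times the median and a level of 43.7%. The tile chr16:61056001-61056500 had 77.8 to 104 times the median and a level of 18.4%. All 4 were partly methylated. The other loci among the deepest 10 were chr4:124210501-124211000 at 50.8%, chr11:74037501-74038000 at 78.8%, chr1:197067501-197068000 at 32.8%, chr19:8326501-8327000 at 36.5%, chr3:5860501-5861000 at 28.3% and chr2:22444001-22444500 at 1.73%. None of the 10 was above 85%.

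The threshold cut through a continuous range. Just inside were chr4:61391501-61392000 with a lowest ratio of 5.04, chr7:7992001-7992500 with 5.07 and chr6:47713001-47713500 with 5.1. Just outside were chr6:47714001-47714500 with 4.94, chr3:62498001-62498500 with 4.93 and chr8:54599001-54599500 with 4.89. One tile on each side belonged to the same array on chromosome 6.

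**Figure D1:**
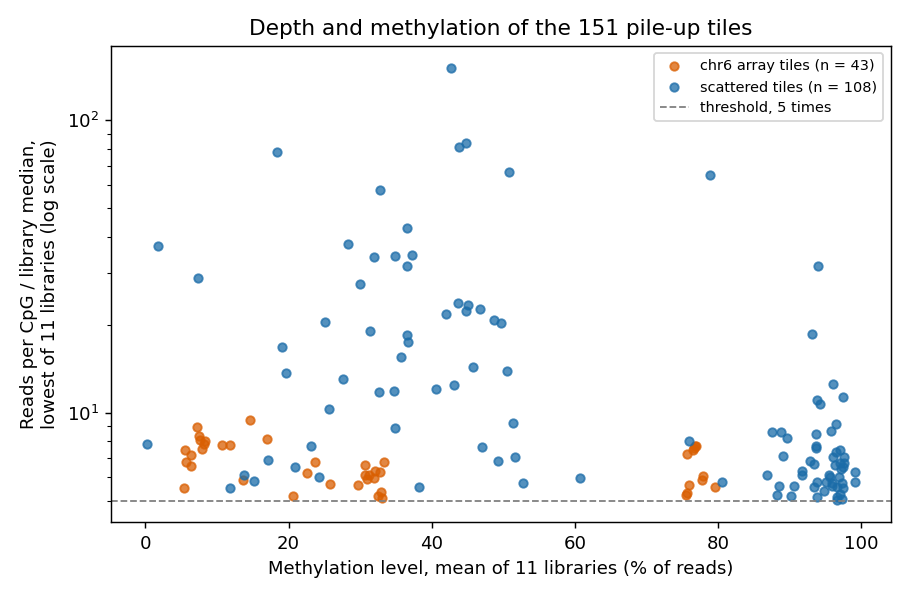
Each point is 1 of the 151 pile-up tiles, with its mean methylation level over 11 libraries (percent of reads) on the horizontal axis and its lowest ratio of reads per CpG to the library median on a logarithmic vertical axis. Orange tiles belong to the chromosome 6 array, blue tiles are scattered, and the dashed line is the threshold of 5. The deepest tile stands at 151 times the median and 42.8%.

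By mean level, 26 of the 151 tiles were under 20%, 58 at 20 to 60%, 15 at 60 to 85% and 52 at 85% or above. The chromosome 6 array held 43 of the tiles and the other 108 were scattered over 97 loci. Among the scattered tiles, 42 were at 20 to 60% with a median of 37.7%, and their median lowest ratio of depth was 18.8. The 52 scattered tiles at 85% or above had a median level of 95.7% and a median lowest ratio of 6.36. A further 10 scattered tiles were under 20% and 4 at 60 to 85%. By these medians the partly methylated scattered tiles were deeper than the highly methylated ones, but the ranges overlapped. Lowest ratios spanned 5.58 to 151 at 20 to 60% and 5.04 to 31.8 at 85% or above. Under 20% they spanned 5.53 to 77.8. The locus with the most tiles outside the array was chr12:20237501-20240500, with 4 tiles at a mean level of 96.1%. The longest runs after it were 12 loci of 3 tiles, all in the array.

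Within a tile, CpGs of very different depth lay side by side. CpGs with at least 5 times the library median in all 11 libraries are called deep here, and CpGs under 5 times the median in all 11 are called of ordinary depth. Only 21 of the 151 tiles had deep CpGs alone, and 118 held both kinds. In 48 of these 118 (40.7%) the mean levels of both kinds differed by more than 20 percentage points. In 47 of the 48 the ranges over the 11 libraries did not overlap. Among 399 tiles outside the rule that held both kinds and 3 or more CpGs, 47 (11.8%) differed by that much. In those 399 the median levels were 9.1% in deep and 12.1% in ordinary CpGs, against 43.3 and 84.9% in the 118. Levels near 0 leave little room to differ, so the 399 are not a like background. Tiles are not replicates of a condition and share libraries, so no test was run on these counts.

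The direction varied between tiles. In the 39 scattered tiles under 60% that held both kinds, 26 had deep CpGs lower by more than 20 points and 4 had them higher. These tiles were grouped by a level that their deep CpGs dominate, so the counts are a description. Where ordinary CpGs were at or above 80%, the grouping itself left only lower levels for deep CpGs. Where they were under 5%, there was little room for lower ones. Whether the direction depends on the surroundings was therefore not tested. In 22 of the 39, the ordinary CpGs were at or above 80%, with a median of 97.0%, while the deep CpGs had a median of 36.6%. The tile chr13:44965001-44965500 had 10 deep CpGs at 37.0% (mean of 351 to 1795 reads per CpG) and 9 ordinary ones at 98.4% (6.3 to 32.3 reads). The tile chr19:8326501-8327000 had 5 deep CpGs at 36.5% and 5 ordinary ones at 98.1%. The tile chr9:56071501-56072000 had 8 at 23.6% and 6 at 98.5%. In each, partly methylated deep CpGs thus shared a tile with highly methylated ordinary ones. Their order along the tile was not examined.

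In 7 of the 39 tiles the ordinary CpGs were under 5%, and in 4 of these the deep CpGs were higher by more than 20 points. In the Lyst tile, chr13:13682501-13683000, 2 deep CpGs stood at 42.0% and 27 ordinary ones at 0.13%. The tile chr1:197067501-197068000 had 1 deep CpG at 33.3% and 2 ordinary ones at 0.86%. The tile chr11:3024001-3024500 had 4 deep CpGs at 27.7% and 3 ordinary ones at 1.18%. The tile chr17:3083501-3084000 had 3 at 25.7% and 3 at 1.09%. The rest of the 7 differed by less. Deep and ordinary CpGs were at 17.1 and 0.44% in chr12:4600001-4600500 and at 7.46 and 0.28% in chr11:75401501-75402000. In the Hjurp tile, chr1:90174001-90174500, they were at 0.14 and 1.3%. Deep CpGs of both kinds of tile had partly overlapping levels. Their medians were 36.6% in the 22 tiles above and 25.7% in the 7 tiles whose ordinary CpGs were under 5%. In the scattered tiles at 85% or above, 41 held both kinds and their median difference was 0.07 points.

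**Figure D2:**
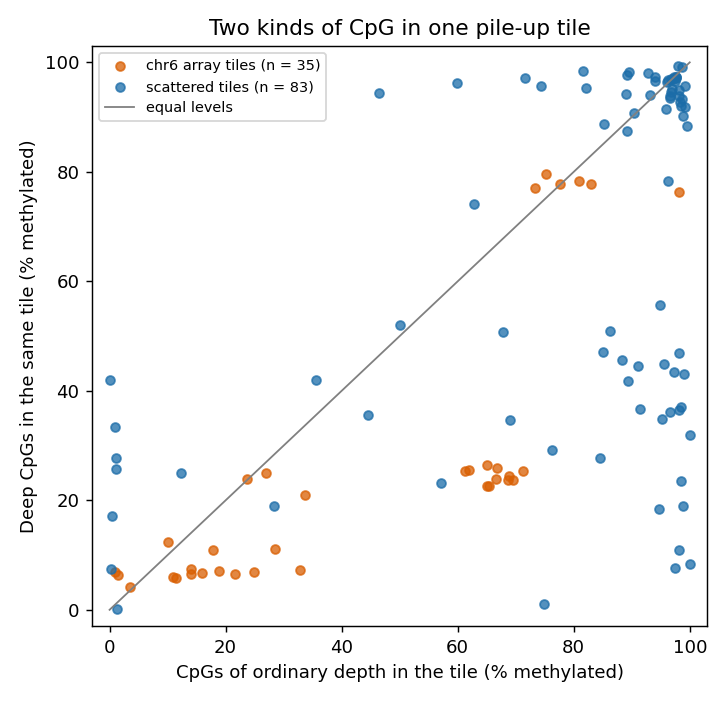
Each point is 1 of 118 pile-up tiles, with the methylation of its CpGs of ordinary depth on the horizontal axis and of its deep CpGs on the vertical axis (both percent, means of 11 libraries). The grey line marks equal levels. A cloud of scattered tiles at the lower right has ordinary CpGs near 97.0% and deep CpGs near 36.6%.

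The chromosome 6 array was the clearest tandem repeat among the members. Its 43 tiles spanned 47604501 to 47728500, and the most frequent distance between its CpGs was 4327 bp. A pattern of 43 CpGs, taken from the copy that starts at 47604801, recurred 16 times with at least 15 CpGs at the same offsets. Copies 4 and 8 had all 43 CpGs in place. Neighbouring copies were a median of 4335 bp apart (4260 to 5598). The copies formed 2 blocks, one ending at 47636263 and one starting at 47689678, and 0 CpGs were listed between them, from 4000 bp after the one to 4000 bp before the other. By CpG spacing, the promoter of the long non-coding RNA gene Gm40371 lay 2932 bp to the left of the array, and that of the zinc finger gene Zfp398 lay 56910 bp to its right. In RefSeq's order of genes, Rn4.5s, a 4.5S RNA gene, comes shortly after Gm40371, before Rny3, Rny1 (Y RNA genes) and Pdia4. Which of these genes the copies hold was not tested.

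Methylation followed the position within a copy. The first CpG had a median level of 70.1% over 11 copies, and the CpG at offset 69 bp had 82.7% over 12. The level was 33.0% at offset 90 bp, 19.9% at 95 bp and 15.3% at 109 bp, and it was 66.7% at 270 bp over 13 copies. From 517 to 559 bp the medians were 12.2 to 17.2%. From 667 to 691 bp the medians were 1.95 to 4.94%, and from 1001 to 1180 bp they were 67.0 to 85.8%. The profile thus had a narrow dip near 109 bp and a wide one from 517 to 691 bp, with higher levels before, between and after them. By tile, 16 array tiles were under 20% with a median of 7.76%, 16 at 20 to 60% with a median of 31.1%, and 11 at 60 to 85% with a median of 76.6%. The most methylated tile, chr6:47614501-47615000, was at 79.6%, and the least, chr6:47690001-47690500, at 5.37%.

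The copies were not alike throughout. Over 5 CpGs at offsets 531 to 559 bp, copies 1, 4, 7 and 8 had 0.0 to 1.22% methylation over the 11 libraries, from 301 to 2904 summed reads. The other 12 copies had 12.4 to 20.2%, from 1413 to 10332 reads, so the ranges did not overlap. Copies 2, 3, 5 and 6, of the same block, had 5.93 to 20.4% from 387 to 3081 reads. These copies were told apart after their values were seen, so no test was run. At offset 607 bp copies 1, 4, 7 and 8 had 7.76, 9.86, 8.61 and 8.9%, the means of 11 libraries. The other 12 copies had 2.93% (copy 9) to 11.35% (copy 15) there, so these ranges overlapped. Copy 9 had a mean of 37.8 reads at this CpG, against 220.9 in copy 15.

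**Figure D3:**
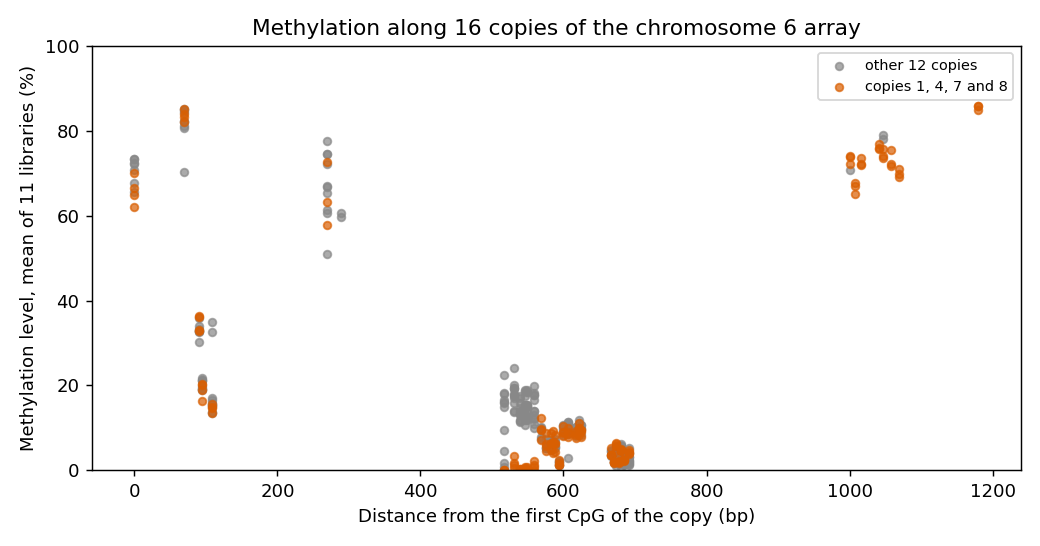
Each point is 1 CpG of 1 of the 16 copies, at its distance in bp from the first CpG of the copy, with its mean methylation over 11 libraries. Orange points are copies 1, 4, 7 and 8, whose CpGs at offsets 531 to 559 bp lie between 0.05 and 3.25%. Grey points are the other 12 copies, which lie between 10.07 and 24.04% there.

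The chromosome 2 row was the deepest place in every library. Its CpGs at 98506419, 98506429 and 98506660 had 78388 to 1119789 reads, which is 15678 to 51137 times the library median. They were almost fully methylated, at 97.3 to 97.9%, 94.0 to 94.8% and 96.4 to 97.2%. Summed over the 3 CpGs, the level was 96.78% in continuous estradiol. After 24 h it was 96.61 and 96.78%, after 40 h 96.43 and 96.75%, and after 56 h 96.40 and 96.60%. After 72 h it was 96.08 and 96.49%, and after 120 h 96.26 and 96.51%. All 11 libraries lay within 0.695 points. The 120 h cells had 96.387% ± 0.176 (SD, n = 2) and the returned cells 96.517% ± 0.223 (SD, n = 8), a difference of -0.13 points. An exact two-sided permutation test gave p = 0.489 (adjusted over 2 tests, 0.489), and the smallest p this design allows is 0.0222. Replicate 2 was above replicate 1 in 5 of 5 groups, by 0.267 points on average, with an exact sign-flip p of 0.0625, the smallest 5 pairs can give (adjusted, 0.125).

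Cells kept without estradiol for 120 h were compared with cells withdrawn for 24 h and returned. The 120 h cells were not given estradiol back, so length of withdrawal and lack of return cannot be told apart here. For tests a CpG needed 10 reads or more in each of the 11 libraries. With 3 or more such CpGs per tile, 118 of the 151 pile-up tiles could be tested among 6849 tiles in all. None of the 118 was called at an adjusted p of 0.05 by the quasi-binomial test with limma's moderated dispersion, where 0.0% of the 6849 tiles were called. Limma on logits called 0 of the 118 in this and in each of the other 4 comparisons. Of all 6849 tiles it called 1 in 120 h against continuous estradiol and 0 in each of the others. At an unadjusted p under 0.05, 10 of the 118 (8.47%) passed, beside 6.09% of all tiles. The tile with the smallest p, chr9:56071501-56072000, had 28.3% ± 0.52 after 120 h and 22.3% ± 1.69 after 24 h (SD, n = 2 each), with an adjusted p of 0.723. The next were chr1:169270501-169271000, with 21.2% ± 0.49 against 17.05% ± 0.14, and chr13:9857501-9858000, with 87.1% ± 4.17 against 93.2% ± 0.91. Their adjusted p was 0.723 as well.

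Both 120 h libraries were above both 24 h libraries in 37 of the 118 tiles (31.4%), beside 17.0% of all tiles tested. They were below both in 17 (14.4%), beside 12.6%. Of the 37, 22 were among the 35 tested scattered tiles of 20 to 60%. The share among other tiles of that class was not computed. All tiles tested had a median level of 0.82%, so their 17.0% is not a like background, and the 22 are a description. The median difference in these 35 was 3.38 points, against 0.09 in 361 other tiles of 20 to 60% and -0.08 in the array tiles of that class. The 45S locus, left out of the members, had a median difference of 3.33 points over its 12 tiles. In the same 35 tiles the median difference between replicates was 1.24 points at 24 h and 1.59 at 120 h, and it was larger in the other groups. The part of these replicate differences in the values was not tested.

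Against continuous estradiol, 0 of 118 tiles were called by the same test, beside 0.0% of all tiles, and 5 (4.24%) had an unadjusted p under 0.05, beside 3.71%. The array tile chr6:47635001-47635500 had 41.0% in the 1 library of continuous estradiol (95% Clopper-Pearson interval 35.0 to 47.2, from 261 reads) and 30.4% ± 1.71 (SD, n = 2) after 120 h. Its adjusted p was 0.88 by the quasi-binomial test. The tile chr15:86025001-86025500 had 30.3% (26.2 to 34.7, from 478 reads) and 40.9% ± 1.26. The tile chr6:142116501-142117000 had 97.2% (94.9 to 98.7, from 358 reads) beside 93.3 and 94.9% in the 120 h libraries. The intervals cover counting error only, since PCR reads are not independent molecules.

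Among returned cells, 72 h of withdrawal was compared with 24 h, and a slope was fitted over 24, 40, 56 and 72 h. Longer withdrawal always went with shorter return, from 96 h to 48 h, so withdrawal and return cannot be told apart. Neither comparison called a pile-up tile, and each called 0.0% of all tiles. Unadjusted p was under 0.05 in 7 of 118 tiles (5.93%) for 72 h against 24 h, beside 5.9% of all tiles, and in 5 (4.24%) for the slope, beside 4.83%. Both 72 h libraries were below both 24 h libraries in 22 tiles (18.6%), beside 12.8% of all tiles, and above them in 8 (6.78%), beside 14.1%. The tiles of smallest p were the same in both. The tile chr13:9857501-9858000 had 92.6 and 93.8% after 24 h, 86.3 and 89.8% after 40 h, 83.0 and 88.4% after 56 h, and 81.9 and 90.9% after 72 h. Over these 8 libraries its replicates 1 spanned 81.9 to 92.6% and its replicates 2 88.4 to 93.8%. The array tile chr6:47721501-47722000 had 30.5 and 25.0% after 24 h, 22.9 and 26.5% after 40 h, 19.7 and 25.5% after 56 h, and 19.7 and 20.4% after 72 h. The tile chr4:40598501-40599000 had 92.3 and 90.1% after 24 h and 88.0 and 84.98% after 72 h. Adjusted p-values of the quasi-binomial test were 0.726 or above for 72 h against 24 h in these tiles.

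The replicates themselves differed, and the tested pile-up tiles that differed alike in all 5 groups did so in 1 direction. Averaged over the groups, replicate 2 minus replicate 1 ranged from -2.91 to 7.47 points over the 118 tiles. Replicate 2 was above replicate 1 in all 5 groups in 25 of the 118 tested tiles (21.2%), beside 2.04% of all tiles. It was below in all 5 in 0, beside 1.55%. The model with a replicate term called 0 of 118 (0.0% of all tiles), with an unadjusted p under 0.05 in 20 (16.9%), beside 2.79%. The tile chr11:105928001-105928500, 845 bp after the start of Taco1 (a translational activator of a cytochrome c oxidase subunit) by CpG spacing, had the smallest p. Its replicates 1 were at 41.4, 35.6, 35.4, 37.1 and 44.4% after 24, 40, 56, 72 and 120 h. Its replicates 2 were at 43.1, 44.5, 44.8, 44.8 and 50.9%, higher by 6.83 points on average, with an adjusted p of 0.934. The tile chr17:36368001-36368500 was higher in replicate 2 by 4.35 points and chr12:100883001-100883500 by 4.70, each in 5 of 5 groups.

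The shift was most frequent in the partly methylated scattered tiles. There 18 of 35 (51.4%) had replicate 2 above in all 5 groups, with a median difference of 4.35 points, against 6.09% and 0.42 points in 361 other tiles of 20 to 60%. Among scattered tiles at 85% or above it was 5 of 29 (17.2%) and 0.35 points, against 2.7% of other tiles of that class. Among those under 20% it was 1 of 7 (14.3%) and 1.27 points, against 0.704%. In the array it was 1 of 43 tiles (2.33%) and 0.21 points. In the 45S locus it was 9 of 12 tiles and 4.19 points. The gap between replicates, whatever its sign, had a median of 7.14 points in the 361 other tiles and 4.76 in the 35. A share above in all 5 groups also depends on that spread, so 51.4 and 6.09% are not a like comparison. The median library levels of the 42 scattered tiles were 38.0, 34.8, 35.7, 34.3 and 40.9% in replicates 1 and 39.1, 43.8, 42.2, 41.9 and 43.5% in replicates 2, after 24, 40, 56, 72 and 120 h. Continuous estradiol had 37.7%. The lowest values were replicates 1 of 40 and 72 h, which were also lowest at the 45S locus, at 30.4 and 30.2%. Over the 35 tested tiles the median differences were 1.24, 6.88, 4.94, 6.53 and 1.59 points at 24, 40, 56, 72 and 120 h. The summed level of the 45S locus was higher in replicate 2 by 1.27, 6.48, 5.28, 7.80 and 1.39 points. With the 40 and 72 h groups left out, the median difference over these 35 tiles was 2.74 points. It was not computed for other tiles without those groups.

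The tiles with the widest mean gap between replicates were chr15:7925501-7926000 with 9.80 points, chr19:8326501-8327000 with 7.47, chr6:44743001-44743500 with 7.45, chr19:51217001-51217500 with 7.36 and chr3:61963001-61963500 with 6.93. Replicate 2 was above in 5 of 5 groups in the last 4 and in 4 of 5 in the first. At chr19:8326501-8327000 the libraries ranged from 27.5 to 42.9%.

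**Figure D4:**
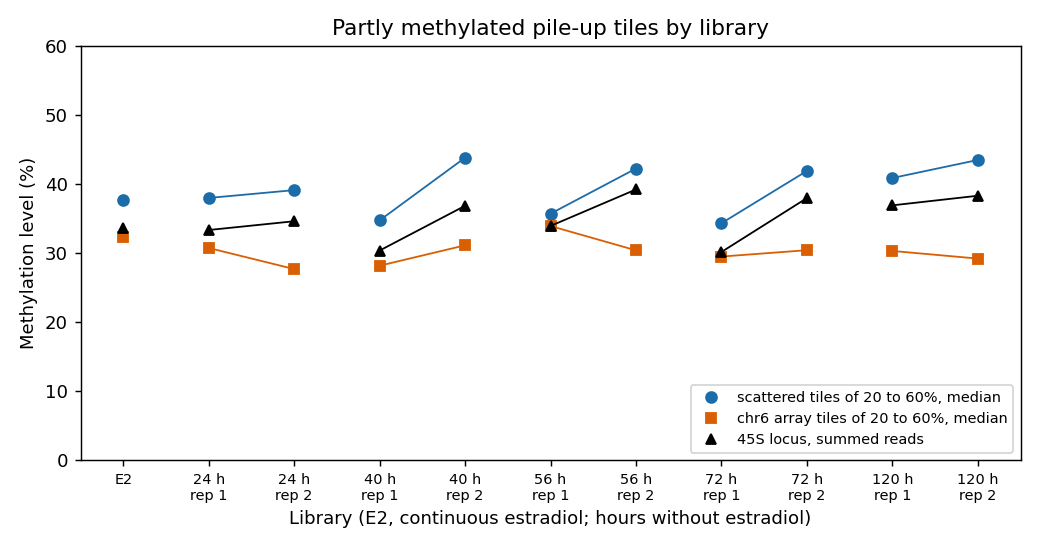
Methylation level (percent) in each of the 11 libraries, with a line joining the replicates of a group. Blue is the median of the 42 scattered tiles of 20 to 60%, orange that of the 16 array tiles of that class, and black the summed 45S locus. Blue and black are higher in replicate 2 in every group. At 40 h blue stands at 34.8 and 43.8% in replicates 1 and 2, and black at 30.4 and 36.9%.

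The shift was larger in unmethylated than in methylated reads. The 42 scattered tiles of 20 to 60% held unmethylated reads amounting to 0.384 to 0.540% of a library's reads in replicates 1 and 0.351 to 0.388% in replicates 2. Replicate 1 was higher in 5 of 5 groups, and the median ratio of replicate 2 to replicate 1 was 0.869. Their methylated reads amounted to 0.232 to 0.272% in replicates 1 and 0.236 to 0.268% in replicates 2, with replicate 1 higher in 3 of 5 groups and a median ratio of 0.982. The 45S locus had ratios of 0.827 for unmethylated and 0.983 for methylated reads. In the array tiles of 20 to 60% the ratios were 1.04 and 1.02. Within tiles, the median difference between replicates was 3.55 points in the deep CpGs of 30 scattered tiles of 20 to 60% and 0.25 points in their CpGs of ordinary depth. The latter had a median level of 87.3%, and many lay near 0 or 100%, where a level can move little, so the values are not comparable in size. The replicate number could stand for a culture, a preparation or a run. The labels do not say which, and these cannot be told apart.

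**Figure D5:**
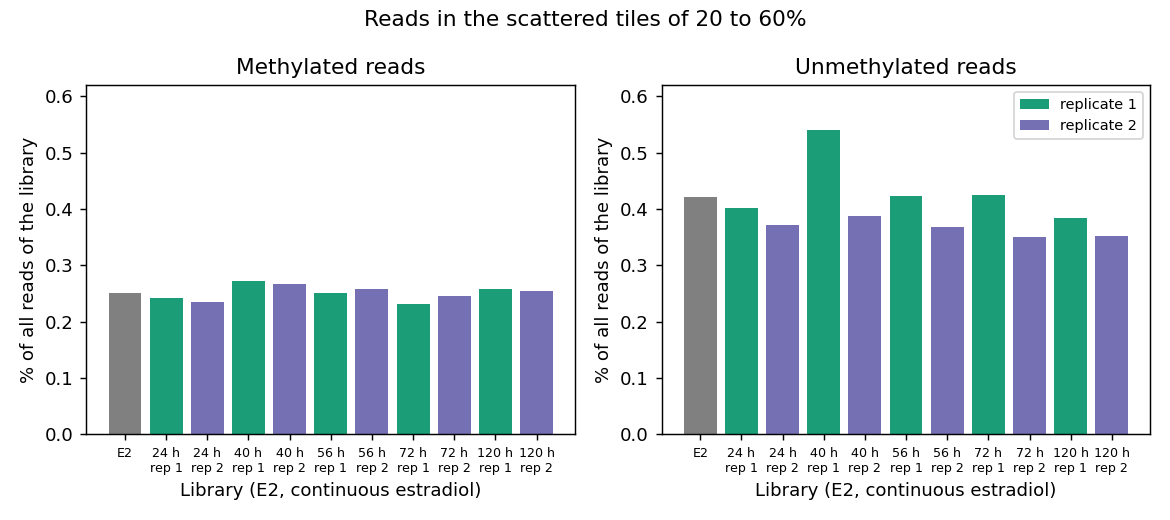
Bars give methylated reads (left) and unmethylated reads (right) in the 42 scattered tiles of 20 to 60% as a percent of all reads of each library, for continuous estradiol (grey), replicates 1 (green) and replicates 2 (purple). Unmethylated reads span 0.384 to 0.540% in replicates 1 and 0.351 to 0.388% in replicates 2.

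Positions of CpGs served to look for copies of one another and for genes. Each locus was slid over the others, in both orientations, until their CpG positions coincided. Of 97 scattered loci, 41 had 8 or more CpGs, and 5 pairs of loci shared 8 or more, at 90% or more of the CpGs in the matched span of at least 1 of them. A further locus matched the 45S locus. The locus chr1:169270001-169271000 shared 15 CpGs over 105 bp with chr16:11144001-11144500 (15 of 15 on the first side and of 16 on the second). Their levels were 27.4 and 19.6%. The locus chr12:100883001-100884000, at 33.8%, shared 11 with chr16:57391001-57392000 at 37.8%, 9 with chr13:44965001-44965500 at 38.0% (9 of 10 CpGs on the first side and of 13 on the second) and 9 with chr14:105115001-105115500 at 46.6%. The locus chr7:7230501-7231000, at 75.3%, shared 8 with chr7:89919501-89920500 at 93.8%. All 5 of these pairs lay in opposite orientation in the build. How often unrelated loci would match as well was not computed for these pairs, so whether they are copies was not tested. The locus chr6:3150501-3151500 shared 14 of 14 CpGs over 565 bp with the 45S locus in the same orientation, at a level of 39.3%. Of tiles with 8 or more CpGs, 1 of 65 pile-up tiles matched the 45S locus at 90% or more of its CpGs, against 0 of 31740 others. This search was added after the data were seen.

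The same search against 32851 RefSeq promoter windows placed known gene starts near the loci. A window counted when at least 10 of its CpGs were measured and every listed CpG within it fell on a CpG of the window. The locus's own chromosome was searched up to 100 kb away and gave 117 matches, 9 of them within 500 bp. Windows from all other chromosomes were searched up to 500 bp away and gave 0. Of the 97 scattered loci, 43 had a matched start within 100 kb and 11 lay inside the span of a matched gene, by the gene's length in RefSeq. The deep tile chr5:147072501-147073000 lay 29924 bp into Cdk8, a kinase of the Mediator complex. The tile chr12:82881001-82881500 lay 907 bp into Map3k9, a mitogen-activated kinase kinase kinase, where 2 deep CpGs stood at 29.1% and 6 ordinary ones at 76.3%. The tile chr12:4600001-4600500 lay 436 bp into Itsn2, an endocytic scaffold, with 5 deep CpGs at 17.1% and 34 ordinary ones at 0.44%. The tile chr4:136392501-136393000 lay 823 bp before the start of Ephb2, a receptor tyrosine kinase, with 4 deep CpGs at 23.1% and 4 ordinary ones at 57.1%. Nearness says nothing about these genes' expression, which was not measured. The genes were named for their distance after the levels were known.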

How the data were processed

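RRBS was measured in 11 libraries of 6 groups, taken from the labels. The deposited files list, per CpG, a methylated and a total read count, and a score the authors set to 1000 times the methylated share. The score was not tested. Per the submitters' processing notes the build was mm9. The aligner, caller and treatment of PCR duplicates and of reads with several matches are not given in the sources used here, and these set how reads of repeated DNA are placed. The members and lists were chosen with earlier results of these data known.

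Tiles with at least 3 CpGs of at least 10 reads in all libraries were fitted by quasi-binomial logistic regression on the methylated and unmethylated counts (numpy 2.4.6). All 11 libraries shared 1 fit for the comparisons of groups. The dispersion was moderated with squeezeVar of limma 3.58.1 (R 4.3.3), with a prior that follows depth and a lower limit of 1. P-values were adjusted by Benjamini-Hochberg over 6849 tiles at 0.05. The fit was tested on simulated data. A level is methylated over all reads of a tile's tested CpGs or, in 33 untested members, of its CpGs listed in every file. Over all tiles, replicate numbers did not meet the criterion for pairing (every correlation of deviations over 0.1), and the fits have no block (see the closing section). Regions were named by depth, smallest p, nearness to the threshold, spread between replicates and length of run; others were named after their values were seen. Promoter sequences are from RefSeq (GRCm38.p6).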

Additional observations from a re-analysis of the deposited data

How the results depend on the processing

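The count of pile-up tiles called was 0 in all 5 comparisons and stayed 0 under other coverage minimums, 1 prior for all tiles, limma on logits, loss of the deepest CpG and each replicate left out (range 0 to 0). The exception was replicate 2 against replicate 1 with no lower limit of the dispersion, which called 3 tiles, all higher, beside 714 of 6849 tiles in all. By limma, unadjusted p was under 0.05 in 0, 1, 0, 0 and 5 of 118 pile-up tiles, beside 326, 511, 326, 241 and 338 of all 6849 tiles. The order is 120 h against 24 h, 120 h against continuous estradiol, 72 h against 24 h, the slope and the replicates. With the replicate block the counts called were 0 in the 4 comparisons of groups. Deviations of same-numbered replicates from their group means correlated between groups at 0.0 to 0.07 over all tiles with 0 of 10 pairs of groups over 0.1. Over pile-up tiles they correlated at 0.1 to 0.4, with 9 of 10 over 0.1, so same-numbered libraries deviated together there. What the number stands for is not given in the labels. The number of members was 44 at 10 times the median, 213 at 4 times, 125 with 1000-bp tiles, 127 against the median of CpGs listed in every file, 176 with 10 of 11 libraries and 151 to 170 with a replicate left out, 170 without replicate 1 of 40 h. The chromosome 2 difference ranged from -0.255 to -0.002 points over the replicates left out and without its deepest CpG. Groups of 2 and a spread between replicates of a median 2.65 points limit what could be detected. A further 33 of 151 members could not be tested. They did not have 3 CpGs of 10 reads or more in every library, though their mean depth passed the threshold.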
